A study of Homo sapiens with 6 samples.

Results

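Wnt antagonists of the SFRP, DKK and SHISA families were examined after small interfering RNA (siRNA) against the transcription factor SOX2 in PA1, a cell line established from a human ovarian teratocarcinoma. The set holds 10 genes of the 59653 gene symbols counted: the secreted frizzled-related genes FRZB, SFRP1, SFRP2, SFRP4 and SFRP5, the Dickkopf genes DKK1, DKK2 and DKK3, and the Shisa genes SHISA2 and SHISA3. The genes were chosen by family name and by measured values of the same comparison, in which FRZB and SHISA3 moved in opposite directions. The differences of the 10 genes between the groups are therefore given as descriptions, without p-values.

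The labels call all cells wildtype. One group of 3 libraries received a negative control siRNA and the other group of 3 received siRNA against SOX2 and is called the knockdown group here. The labels name 2 siRNAs against SOX2, and whether a culture received both is not given. Cells were transfected on adherent plastic, moved after 24 h to poly-HEMA-coated plates, which prevent attachment, and grown there for 72 h before RNA extraction. The study is of 1 cell line, and nothing in the labels says that the replicates were separate cultures. The p-values therefore set group differences only against the spread between these libraries, which may be technical.

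Wnt ligands act by bringing a Frizzled receptor together with a co-receptor of the LRP family, after which beta-catenin escapes degradation and works with TCF/LEF factors on target genes. SFRP proteins carry a cysteine-rich domain like that of Frizzled and bind Wnt ligands outside the cell. DKK1 and DKK2 bind the LRP co-receptors, while DKK3 is a divergent relative. Shisa proteins hold immature Frizzled and FGF receptors in the endoplasmic reticulum.

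The promoter of SHISA3 is shown because SHISA3 was the member with the largest decrease as a fold change. RefSeq entries on GRCh38.p14 matched 7 of the 10 genes by symbol (FRZB, SFRP2, SFRP4, SFRP5, DKK1, SHISA2 and SHISA3), and entries for SFRP1, DKK2 and DKK3 were not used here. The 250 bases before the RefSeq start of SHISA3, at chr4:42397238-42397487 on the plus strand, are given 5′ to 3′ with a match to the SOX core letters CATTGT in capitals.
SHISA3: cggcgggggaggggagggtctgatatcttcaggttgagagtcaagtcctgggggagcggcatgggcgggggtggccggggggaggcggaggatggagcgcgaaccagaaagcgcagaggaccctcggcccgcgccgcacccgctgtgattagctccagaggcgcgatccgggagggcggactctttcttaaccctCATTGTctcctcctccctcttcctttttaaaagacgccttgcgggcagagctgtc

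A set of 4 short motifs were searched on both strands in these 250 bases: the SOX cores CATTGT and CTTTGT, the TCF/LEF core CTTTGAT and the octamer core ATGCAAA. No motif contains another, although CTTTGT and CTTTGAT begin with the same letters. Matches were found before 3 of the 7 genes, each with a single match. SHISA3 held CATTGT at 55 to 50 bases before the start, DKK1 held CTTTGT at 76 to 71 bases, and SFRP2 held the octamer core on the opposite strand at 34 to 28 bases. The DKK1 and SFRP2 matches are shown in capitals with their flanks, from chr10:52314194-52314221 on the plus strand and chr4:153789100-153789128 on the minus strand.
DKK1: tcccatcccggCTTTGTtgtctccctcc
SFRP2: caccctccagaTTTGCATaaaaaaggcca

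Of all 35116 promoters of the same length, 9.29% held CATTGT, 13.7% CTTTGT, 2.26% CTTTGAT and 3.94% the octamer core on either strand. A match is a stretch of letters and not a bound site. The SFRP2 match lies within the 37 bases of its window that GENCODE 29 counts as SFRP2 exon. The GENCODE 29 start of SHISA3 is 351 bases downstream of the RefSeq start, so the SHISA3 match lies further from that start. The window before the RefSeq start of FRZB held none of the 4 motifs. All of its 250 bases lie in a FRZB exon of GENCODE 29, whose FRZB start is 525 bases further upstream. The GC content of the 7 windows ranged from 55.6% for FRZB to 76.8% for SFRP5, against a median of 58.0% over all promoters.

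SOX2 itself fell from 255 ± 10.1 to 52.5 ± 2.21 CPM (SD, n = 3), so that 20.5% of the control level remained (log2 fold change -2.28, SE 0.0437; adjusted p = 5.97e-16 by the quasi-likelihood test of edgeR with Benjamini-Hochberg adjustment). CPM are counts scaled to depth with TMM factors, and library totals were 25152313 to 32753184 counts. At this depth 3 counts, taken as the floor of detection, equal 0.0909 to 0.120 CPM; the floor covers counting error only. Of 17592 genes tested, 4964 (28.2%) were called at an adjusted p under 0.05, 14.8% higher and 13.4% lower, and 3.17% were called with at least a 2-fold change. PA1 cells carried the embryonal carcinoma markers POU5F1, LIN28A, SALL4 and DNMT3B in each library, while TDGF1, another of the 8 markers, had 0 to 3 counts. DPPA4 and L1TD1, also on the list, were low, at 51 to 100 and 24 to 88 counts. The 8 markers, SOX2 included, summed to 1495 to 1529 CPM in control and 1819 to 1821 CPM in knockdown libraries. LIN28A was the largest part of the sum, at 706 CPM in control and 1148 CPM in knockdown libraries (means, n = 3). Of the 7 tested markers, 3 were called higher (POU5F1, LIN28A and DNMT3B) and 1 lower (SOX2). SALL4, DPPA4 and L1TD1 were not called. The sum is therefore not a rise of the whole list.

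FRZB, a secreted frizzled-related protein, was the member with the largest increase. Its counts were 411, 266 and 333 in control, against 3050, 3531 and 3325 in knockdown libraries. The lowest knockdown library stood far above the highest control library. Mean levels were 11.5 ± 0.918 and 107 ± 5.42 CPM (SD, n = 3), a 9.25-fold increase (log2 fold change 3.21, SE 0.0603).

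SFRP2, another secreted Wnt-binding protein, went the other way. Its control libraries had 6818, 5152 and 5997 counts and its knockdown libraries 2205, 2366 and 2394. The groups did not overlap, and the mean fell from 207 ± 0.901 to 75.4 ± 4.06 CPM (mean ± SD, n = 3; log2 fold change -1.45, SE 0.0412). SFRP1, of the same family, had 1951, 1457 and 1700 counts in control and 1202, 1328 and 1191 in knockdown libraries. Scaled to depth these were 58.7 ± 0.488 and 40.3 ± 0.710 CPM (mean ± SD, n = 3; log2 fold change -0.54, SE 0.0433), without overlap between the groups.

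SFRP4 and SFRP5 were near the limit of detection. SFRP4 had 17, 13 and 12 counts in control and 10, 6 and 5 in knockdown libraries, with a log2 fold change of -1.07 (SE 0.384). SFRP4 passed the filter on low counts through its control libraries, with 1 knockdown library above the cut-off. SFRP5 had 0 counts in each control library and 2, 0 and 2 in the knockdown libraries, at or under the floor in both groups, so no fold is given.

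**Figure D1:**
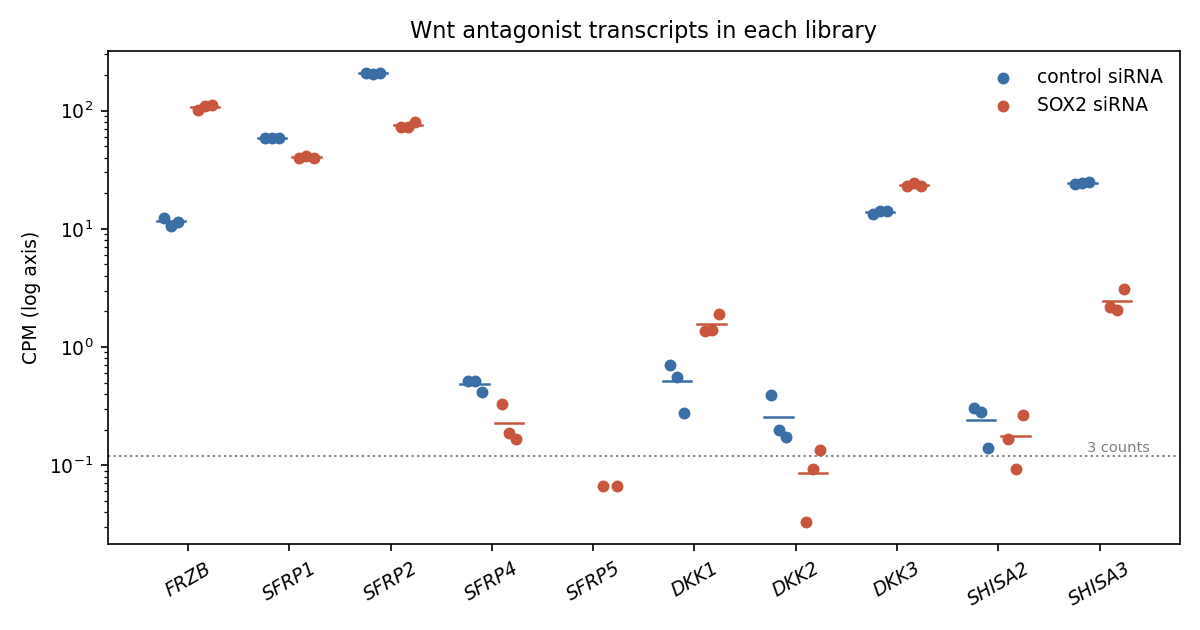
CPM on a log axis of the 10 antagonist genes in the 3 control siRNA (blue) and 3 SOX2 siRNA (red) libraries; points are libraries, short lines the group means, and the dotted line is 3 counts in the shallowest library (0.120 CPM). FRZB, DKK1 and DKK3 sit higher after SOX2 siRNA and SFRP1, SFRP2, SFRP4 and SHISA3 lower; the 4 SFRP5 libraries at 0 are not drawn.

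SHISA3, a Shisa family adaptor of the endoplasmic reticulum, had 790, 611 and 721 counts in control and 66, 66 and 93 in knockdown libraries. The third knockdown library was the highest of its group and still far below each control library. Means were 24.4 ± 0.503 and 2.45 ± 0.581 CPM (SD, n = 3), a log2 fold change of -3.32 (SE 0.109). SHISA2, the close relative, was barely detected, with 10, 7 and 4 counts in control and 5, 3 and 8 in knockdown libraries, and the groups overlapped. SHISA2 did not pass the filter, so the differences of the pair were not compared.

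DKK1, an LRP-binding antagonist, was low in both groups, with 23, 14 and 8 counts in control and 41, 45 and 57 in knockdown libraries. Its mean went from 0.511 ± 0.214 to 1.55 ± 0.308 CPM (mean ± SD, n = 3; log2 fold change 1.58, SE 0.296), with no overlap. DKK1 passed the filter through its knockdown libraries, with 2 control libraries above the cut-off. Exons of DKK1 overlap the antisense gene PRKG1-AS1, which had at most 3 counts in any library. The use of strand in counting is not given, and the part of antisense reads in the DKK1 counts was not tested. DKK3, the divergent family member, had 440, 351 and 409 counts in control and 699, 796 and 682 in knockdown libraries. Its mean went from 13.8 ± 0.437 to 23.5 ± 0.953 CPM (mean ± SD, n = 3; log2 fold change 0.77, SE 0.0631), with every knockdown library above every control library. DKK2 had 13, 5 and 5 counts in control and 1, 3 and 4 in knockdown libraries. These DKK2 counts did not overlap, lay near the floor in the knockdown libraries and failed the filter.

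In all, 7 of the 10 genes passed the filter and 3 (SFRP5, DKK2 and SHISA2) did not. By edgeR's quasi-likelihood test the 7 were called, 3 higher (FRZB, DKK1, DKK3) and 4 lower (SFRP1, SFRP2, SFRP4, SHISA3), beside 28.2% of all tested genes; the rule for choosing the genes used this contrast, and SFRP4 and DKK1 passed the filter only through the group where they were high, so nothing is read from the count. Groups did not overlap for the 7 tested genes, beside 41.8% of all tested genes, nor for the untested DKK2. The median log2 fold change of the 7 was -0.54 and that of all tested genes -0.00085. SFRP4 lost its call under 9 alternatives.

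**Figure D2:**
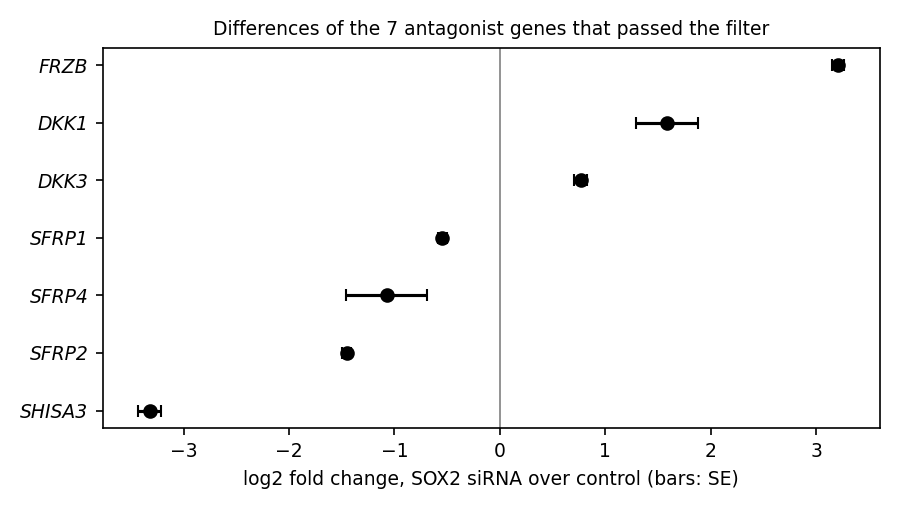
Log2 fold change (SOX2 siRNA over control) of the 7 antagonist genes that passed the filter, with bars for the SE of the edgeR fit. Values run from -3.32 for SHISA3 to 3.21 for FRZB, and the wide bars belong to the low-count genes SFRP4 and DKK1.

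To set genes beside each other, CPM were divided by the length of the merged exons in GENCODE 29 (CPM per kb). In control cells SFRP2 led at 102 ± 0.443 CPM per kb, followed by SHISA3 at 12.4 ± 0.255 and SFRP1 at 12.3 ± 0.103 (SD, n = 3), whose libraries overlapped. FRZB was at 3.65 ± 0.290 and DKK3 at 2.73 ± 0.0864 CPM per kb. DKK1, SFRP4, SHISA2 and DKK2 lay between 0.0591 and 0.232 CPM per kb, with DKK1 and SFRP4 overlapping, and SHISA2 and DKK2 overlapping.

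After SOX2 siRNA, SFRP2 and FRZB stood side by side at the top of the order per length. SFRP2 was at 37.1 ± 2.00 and FRZB at 33.9 ± 1.72 CPM per kb (SD, n = 3). Their libraries did not overlap, but the highest FRZB library (35.2) lay just under the lowest SFRP2 library (35.9). SFRP1 followed at 8.45 ± 0.149, DKK3 at 4.65 ± 0.188, SHISA3 at 1.24 ± 0.295 and DKK1 at 0.704 CPM per kb. SHISA3 thus moved from the second place to the fifth and FRZB from the fourth to the second. With the longest transcript as the length, SHISA3 and SFRP1 exchanged places in control, as did FRZB and DKK3.

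The summed level of the 5 SFRP family genes was 118 ± 0.727 CPM per kb in control and 79.6 ± 3.36 in knockdown libraries (SD, n = 3), so 67.6% of the control sum remained. Without FRZB the remainder was 40.0%. FRZB made up 3.33%, 2.87% and 3.08% of the sum in the control libraries and 41.8%, 43.6% and 42.4% in the knockdown libraries. SFRP2 went from 86.3% ± 0.263 to 46.7% ± 1.06 of the sum (SD, n = 3). The share of SFRP1 was 10.5% ± 0.0342 in control and 10.6% ± 0.486 after SOX2 siRNA, a difference smaller than the spread of the knockdown libraries. These are RNA levels of a bulk culture, in which fewer cells of a kind and less RNA per cell cannot be told apart.

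**Figure D3:**
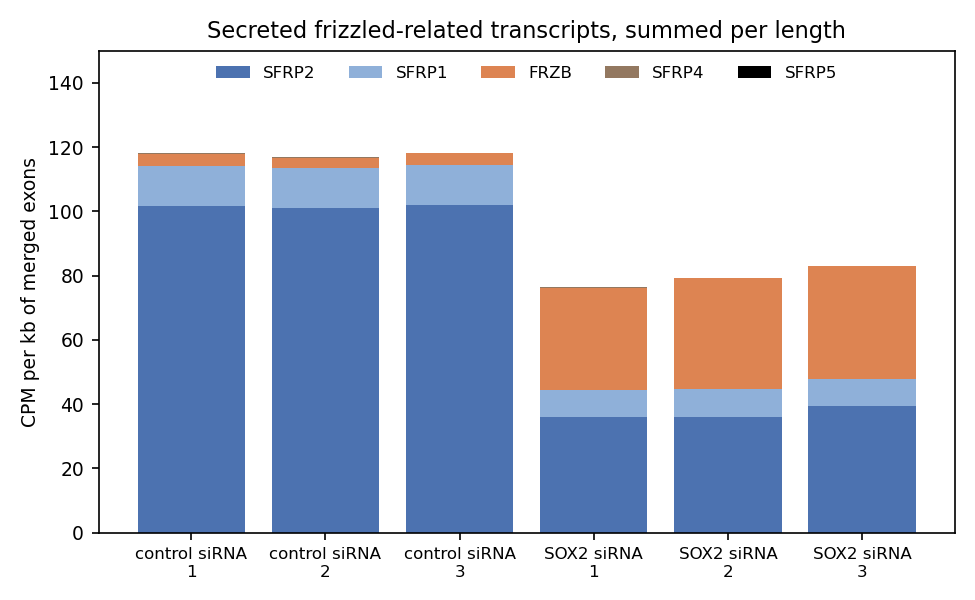
Stacked CPM per kb of merged exons of SFRP2, SFRP1, FRZB, SFRP4 and SFRP5 in each library. The bars total 117 to 118 in control and 76.4 to 83.1 in knockdown libraries, where FRZB takes over 40% of the height; SFRP4 and SFRP5 are too low to see.

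Markers of other cell kinds were read beside these values. The summed level of 7 fibroblast markers was 403 to 453 CPM in control and 518 to 559 CPM in knockdown libraries. COL1A1 made up most of the sum, at 282 CPM in control and 358 CPM in knockdown libraries (means, n = 3). Of the 7, 3 were called higher (COL1A1, PDGFRA and THY1). Beside this count and those of the marker lists that follow, 14.8% of all tested genes were called higher and 13.4% lower. COL1A2 and LUM were not called, with log2 fold changes of -0.12 and 0.52 (edgeR adjusted p = 0.225 and 0.114). DCN had at most 4 counts and FAP at most 1 in any library. The 5 endothelial markers summed to 112 to 116 CPM in control and 83.3 to 86.7 CPM in knockdown libraries, 4 of them called lower and CLDN5 at 0. The 5 epithelial markers summed to 343 to 386 and 475 to 511 CPM, with KRT8 and KRT18, which made up nearly all of the sum, called higher; EPCAM had 20 to 123 counts, CLDN4 13 to 20 and KRT5 0 to 3, and none of these 3 was called. The 5 blood markers ranged from 2.94 to 15.1 CPM in control and from 1.73 to 18.2 CPM in knockdown libraries, a range set by LYZ with 481, 348 and 61 counts in control and 542, 48 and 364 in knockdown libraries. PTPRC and CD3E had 0 to 3 counts and HBB 0. The labels name only PA1 cells, and whether cells of these other kinds were present was not tested. Any part of such cells in the antagonist differences was not tested either.

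The positions of the 7 tested genes were compared with their neighbours, taking from GENCODE 29 the nearest tested protein-coding gene on each side. Of these 14 neighbours, 4 were called higher and 3 lower, beside 14.8% and 13.4% of all tested genes. GPR141, beside SFRP4, was the 1 neighbour called with at least a 2-fold change, and it passed the filter only through its control libraries. Next to FRZB (chr2:182833275-182867162 on GRCh38), DNAJC10 at a distance of 38.8 kb showed a log2 fold change of 0.05 (SE 0.0355; edgeR adjusted p = 0.336). NCKAP1, 41.95 kb away on the other side, rose by 0.31 (SE 0.0358; edgeR adjusted p = 4.09e-06).

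Both neighbours of SHISA3 (chr4:42397839-42402487) fell. ATP8A1, which encodes a phospholipid flippase and lies 5.89 kb away, showed a log2 fold change of -0.89 (SE 0.232; edgeR adjusted p = 0.00769), from 2.12 ± 0.449 to 1.13 ± 0.313 CPM (SD, n = 3). BEND4, 245 kb away, showed a log2 fold change of -0.83 (SE 0.0490; edgeR adjusted p = 7.59e-10), from 68.1 ± 3.45 to 38.4 ± 1.23 CPM. The neighbours of SFRP2, RNF175 and PLRG1, lay 20.4 and 746 kb away. Their log2 fold changes were 0.12 and -0.06, and they were not called (edgeR adjusted p = 0.686 and 0.379). Both neighbours of DKK3 were called higher, USP47 by 0.21 and MICAL2 by 0.76 on the log2 scale (edgeR adjusted p = 0.00522 and 1.94e-04). Beside SFRP4, STARD3NL rose by 0.21 (edgeR adjusted p = 0.00292). GPR141, on the other side, fell by 1.63, from 0.611 ± 0.0827 to 0.193 ± 0.0759 CPM (SD, n = 3). It was tested only through the control group, where it was high, so no p-value is given. The neighbours of SFRP1, 364 and 181 kb away, and those of DKK1, 15.95 and 4039 kb away, were not called.

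Genes with the most similar pattern were taken by the smallest Euclidean distance of centred log2 CPM over the 6 libraries. About 2 counts were added to each value before the logarithm. For FRZB these were LMLN2 (distance 0.261), RIPPLY1 (0.369), CYP26A1 (0.377) and ITGA8 (0.438). CYP26A1, an enzyme that degrades retinoic acid, had 14, 10 and 13 counts in control and 165, 174 and 143 in knockdown libraries. RIPPLY1, a transcriptional co-repressor of somite formation, had 0 counts in each control library and 12, 17 and 14 in the knockdown libraries. Its fitted log2 fold change was 6.81 (SE 0.885), against 3.21 for FRZB. The added counts make the difference of such a low-count gene smaller in the distance. ITGA8, an integrin subunit, rose from 5.32 ± 1.11 to 50.6 ± 1.11 CPM (SD, n = 3). Exons of LMLN2, RIPPLY1 and CYP26A1 overlap those of another gene, so their counts are uncertain to that extent.

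For SHISA3 the most similar were POSTN (distance 0.348), CDH9 (0.570), WNT8B (0.687) and HTR1D (0.689). POSTN encodes the matrix protein periostin and CDH9 a classical cadherin. WNT8B, a Wnt ligand of the developing forebrain, had 62, 47 and 43 counts in control and 2, 4 and 3 in knockdown libraries. The patterns of FRZB and SHISA3 were used to choose them, so these lists are descriptions.

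Other genes of the Wnt pathway, with the FGF receptors that Shisa proteins also bind, were read from 8 lists of 105 genes, of which 81 were tested. Of the 81, 21 rose and 28 fell (edgeR, Benjamini-Hochberg adjusted p under 0.05), against 14.8% and 13.4% of all tested genes, and 32 were not called; the called share was 60.5%, beside 28.2% of all tested genes. The median log2 fold change of the 81 was 0.03. The listed genes thus changed in both directions. The lists were chosen with earlier results of these data known. Some of the called genes, WNT8B and SHISAL2B among them, passed the filter only through the group where they were high. Nothing is therefore read from the called share. The counts of the single lists below stand beside the same shares of all tested genes, and nothing is read from them either. Exons of WLS, CTNNBIP1 and FGFR1 overlap a gene on the opposite strand and those of AXIN2 one on the same strand, so their counts are uncertain to that extent.

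Among 15 tested genes on a list of other antagonists, which also holds the Dickkopf relative DKKL1, 2 rose and 8 fell, with a median log2 fold change of -0.14. CER1, a secreted antagonist of Nodal, BMP and Wnt ligands, had 117, 100 and 94 counts in control and 615, 645 and 623 in knockdown libraries. All knockdown libraries were higher, with a log2 fold change of 2.51 (SE 0.0866; edgeR adjusted p = 5.39e-13). IGFBP4, an IGF-binding protein that also blocks Wnt reception, rose from 42.0 ± 1.05 to 73.6 ± 2.21 CPM (mean ± SD, n = 3; edgeR adjusted p = 2.44e-10). RNF43, a ubiquitin ligase that removes Frizzled from the surface, fell from 61.4 ± 2.11 to 45.2 ± 2.15 CPM (mean ± SD, n = 3; edgeR adjusted p = 1.77e-06); its exons overlap those of SUPT4H1 on the same strand. Of the 9 other Shisa family genes 4 were tested and SHISAL2B was called higher, at 7, 10 and 10 counts in control and 21, 28 and 41 in knockdown libraries. SHISAL2B passed the filter on low counts only through its knockdown libraries, where it was high, so no p-value is given.

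Genes for Wnt ligands, on which SFRP proteins act, and for ligand secretion were read as 1 list. Of its 14 tested genes, 4 rose and 5 fell, and WLS, which is not a ligand, is among the 4. WNT10B fell from 19.8 ± 1.56 to 6.52 ± 0.422 CPM (mean ± SD, n = 3; edgeR adjusted p = 1.21e-10) and WNT8A from 11.8 ± 0.520 to 4.86 ± 0.178 CPM (edgeR adjusted p = 6.64e-09). WLS, the carrier that takes Wnt proteins to the cell surface, rose from 201 ± 4.07 to 327 ± 5.55 CPM (mean ± SD, n = 3; edgeR adjusted p = 5.02e-11).

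Receptor genes also moved both ways. Their list includes the genes of Frizzled, which Shisa proteins bind, and of LRP, which DKK1 and DKK2 bind. Of 15 tested, 4 rose and 5 fell, with a median log2 fold change of 0.01 and 1 gene past 2-fold. FZD3 and FZD7 fell, with log2 fold changes of -0.47 (SE 0.0392) and -0.37 (SE 0.0344), and FZD1 rose by 0.36 (SE 0.0455); the edgeR adjusted p-values were 7.03e-08, 2.30e-07 and 1.21e-05. LGR4, an R-spondin receptor, was the tested gene of its list and fell from 263 ± 12.8 to 126 ± 2.15 CPM (mean ± SD, n = 3; edgeR adjusted p = 1.86e-12). FGF receptors, the other clients of Shisa proteins, gave 1 higher and 2 lower calls among 4. FGFR2 fell from 92.0 ± 6.26 to 38.2 ± 2.04 CPM (mean ± SD, n = 3; log2 fold change -1.27; edgeR adjusted p = 2.51e-11), and FGFR1 showed a log2 fold change of -0.36 (edgeR adjusted p = 2.30e-06). FGFR4 was higher by 0.22 (edgeR adjusted p = 0.0249) and lost its call under 5 alternatives, with adjusted p-values up to 0.107.

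Within the cell, 6 of 17 tested pathway genes rose and 1 fell, none by 2-fold. CTNNB1, which encodes beta-catenin, rose from 766 ± 6.35 to 953 ± 42.3 CPM (mean ± SD, n = 3; edgeR adjusted p = 3.36e-06), and CTNNBIP1, an inhibitor of its binding to TCF factors, from 78.7 ± 2.21 to 124 ± 1.59 CPM (edgeR adjusted p = 6.52e-10). TCF7L1, a mostly repressive TCF factor, showed a log2 fold change of 0.50 (SE 0.0577; edgeR adjusted p = 4.47e-06).

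Of 11 tested beta-catenin target and feedback genes, 3 rose and 6 fell, with a median log2 fold change of -0.23. TNFRSF19 fell from 98.0 ± 4.44 to 50.8 ± 1.53 CPM (mean ± SD, n = 3; edgeR adjusted p = 3.88e-11). The transcription factor genes SP8 and CDX2 fell, with log2 fold changes of -1.75 (SE 0.0909) and -1.54 (SE 0.102); the edgeR adjusted p-values were 1.26e-10 and 3.37e-09. The targets AXIN2 and SP5, named after their values were seen, had opposite log2 fold changes of -0.41 and 0.71.

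**Figure D4:**
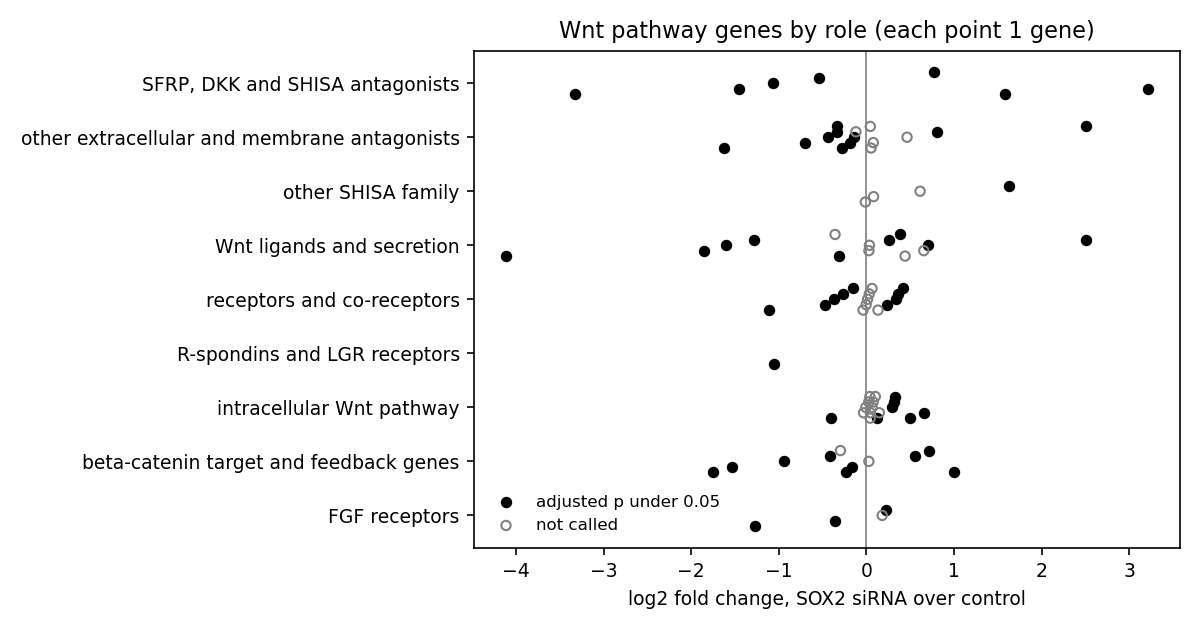
Log2 fold change (SOX2 siRNA over control) of tested Wnt pathway genes by role, filled where the edgeR adjusted p is under 0.05. Points lie on both sides of 0 in most lists; the leftmost point, WNT8B, had 2 to 4 counts per knockdown library, so its fitted fold is uncertain.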

How the data were processed

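mRNA was sequenced from 6 PA1 libraries, 3 per group. The authors deposited raw counts per gene symbol as whole numbers; the submitters' processing notes name bcl2fastq 2.20.0, STAR 2.7.3a, Salmon 0.14.1, DESeq2 1.28.1 and build GRCh38.p13, without saying which step each served. The annotation and the use of strand are not given in the sources used here.

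Counts were analysed in R 4.3.3 with edgeR 4.0.16: filterByExpr with a minimum count of 10, TMM scaling (factors 0.991 to 1.01), glmQLFit with robust=TRUE, glmQLFTest on group, and Benjamini-Hochberg adjustment over all tested genes at 0.05. The replicate number was not in the model. Standard errors are from the same fit. Lengths, exon overlaps and neighbours came from GENCODE 29 and promoters from RefSeq. The procedure was also run on simulated data. Every simulated gene had the same dispersion (spread between libraries), so that run does not cover genes of larger spread.

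The 10 genes and the pathway lists were chosen with earlier results of these data known. Named beyond the 10 genes and SOX2 were, per list, up to 3 called genes by smallest p, and the 4 genes most like FRZB and SHISA3. Neighbours were named by position, cell markers from their lists, and AXIN2, SP5 and DKKL1 outside the rule. Alternatives were DESeq2 1.42.0 size factors or Wald test, limma 3.58.1 voom, other scalings and filters, robust=FALSE, each replicate left out, and the replicate block.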

Additional observations from a re-analysis of the deposited data

How the results depend on the processing

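No count of calls moved by over 1.5 times. Over 15 alternatives the calls among all genes ranged from 1954 to 2809 higher and 1785 to 2734 lower, those among the 10 antagonists from 2 to 3 higher and 3 to 4 lower, and those among the other Wnt pathway and FGF receptor genes from 17 to 22 higher and 25 to 29 lower. The antagonist counts changed because SFRP4 lost its call under 9 alternatives, and because DKK1 and SFRP4 were not tested when at least 10 counts were required in every library. Of all calls, 52.4% were higher in the reported fit and 45.8% under upper-quartile scaling. Across alternatives the log2 fold change of FRZB ranged from 3.16 to 3.27, that of SHISA3 from -3.53 to -3.21 and that of DKK1 from 1.29 to 1.91. Of 520 values for 35 single genes, 14 lost their call (SFRP4 and FGFR4) and 0 reversed; the cause was not tested. The rise in the FRZB share of the SFRP family sum was 39.5 percentage points, and 39.0 to 39.9 with 1 library left out. Depth limits SFRP5, DKK2 and SHISA2, which had at most 13 counts in any library.

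The fit with a replicate block called 2720 genes higher and 2457 lower, among them 3 antagonists higher and 3 lower. The log2 fold changes of FRZB and SHISA3 were then 3.21 and -3.33. What a replicate number refers to is not given. Correlations of the deviations of same-numbered libraries were 0.0868, -0.0377 and -0.0311, and 2 of 6 libraries correlated best with their own number.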

Other observations

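The spread between libraries was set beside counting error for 4 antagonist genes, as a description. SFRP2 had a coefficient of variation of 0.436% over the control libraries, where counting error alone would give 1.29%, and 5.38% over the SOX2 siRNA libraries, where it would give 2.08%. SFRP1 was under its counting error in both groups, at 0.832% against 2.42% in control and 1.76% against 2.84% in SOX2 siRNA libraries. FRZB was over it in both, at 7.96% against 5.45% and 5.06% against 1.74%. SHISA3 had 2.06% against 3.76% in control and 23.8% against 11.5% in SOX2 siRNA libraries, where the third library was high. With 3 libraries per group these coefficients are imprecise and were not tested against each other.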
